A study of Homo sapiens with 6 samples.

Results

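The poly(A)-binding proteins and their interactors comprised 7 genes (PABPC1, PABPC3, PABPC4, PABPC5, PABPN1, PAIP1 and PAIP2) among the 19148 genes measured. They were taken as every array row whose deposited symbol is one of these names, which gave 12 of the 34558 array rows. The group was singled out because PABPC3 read higher in the samples labelled MTA2 siRNA. The genes were thus selected on the difference between siRNA groups, and its values for them are given below as a description, without a test.

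The samples were 6 RNA samples of the KYSE30 cell line, derived from a human squamous cell carcinoma of the oesophagus and grown under 1 protocol. The 3 control samples (samples 1 to 3) received a negative control siRNA and the other 3 (samples 4 to 6) an siRNA against MTA2, each at 20 nmol/ml (the dose as the labels print it) for 48 h, delivered by Lipofectamine. The MTA2 protein belongs to NuRD, a complex that remodels chromatin and removes histone acetyl groups. The label field names Cy3 for samples 1, 3 and 5 and Cy5 for samples 2, 4 and 6, although the protocol describes a one-colour kit. Nothing says that the 3 samples of a group were separate cultures, so the spread behind each p-value may be technical. All samples come from 1 cell line, and 1 siRNA sequence was used against MTA2.

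The groups are defined by their siRNAs, and the labelled dyes are also unequal between them. The siRNAs are shown here as the labels give them, with bases 2 to 8 of each antisense strand, the seed that guides pairing with transcripts, in capitals.
control siRNA, sense: uucuccgaacgugucacgutt
control siRNA, antisense: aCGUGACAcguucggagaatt
MTA2 siRNA, sense: ggugggagauuacgucuautt
MTA2 siRNA, antisense: aUAGACGUaaucucccacctt

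Most messenger RNAs carry a poly(A) tail, which nuclear PABPN1 coats while it is being made. In the cytoplasm PABPC1 and its relatives bind the tail, contact the cap-binding initiation complex through eIF4G and so favour translation. PAIP1 binds PABPC1 and stimulates translation, whereas PAIP2 displaces PABPC1 from the tail and from eIF4G and represses it. PABPC3 is an intronless relative of PABPC1 known mainly from testis.

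The target itself, MTA2, did not read lower in samples 4 to 6. On the log2 intensity scale its only row read 12.92, 13.13 and 13.0 in the controls and 13.12, 13.18 and 13.52 in those labelled MTA2 siRNA. The difference was 0.26 (SE 0.17, 95% interval -0.16 to 0.67, limma adjusted p = 0.943). Every direction between groups below refers to the samples as labelled. Across the array, limma called 0 of 19148 genes between the siRNA groups at an adjusted p of 0.05, and 719 (3.75%) had an unadjusted p under 0.05. The median gene differed by 0.03. By dye, with the siRNA group in the fit, 66 genes (0.345%) were called, 60 (0.313%) lower and 6 higher in Cy5, and 3433 (17.9%) had an unadjusted p under 0.05. The squamous markers KRT5, KRT14, KRT17, EGFR, TP63, CDH1 and EPCAM had medians of 9.46 to 14.56 over the 6 samples. Markers of leukocytes, endothelium, liver and neurons (PTPRC, CD3E, PECAM1, VWF, ALB, APOA1 and RBFOX3), which an epithelial line should lack, had medians of 10.08 to 12.72. KRT5, KRT14 and KRT17 (medians 13.54 to 14.56) lay above the second list, and the other squamous markers did not. Intensity thus did not separate the lists as a whole, so a level alone does not show that a gene is expressed.

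PABPC3 was the one gene of the 7 whose siRNA groups did not overlap. Its single row (transcript NM_030979) read 11.49, 11.27 and 11.48 in control samples 1 to 3. It read 12.11, 12.53 and 12.36 in samples 4 to 6, labelled MTA2 siRNA. All 3 of the latter lay above all 3 controls, by 0.62 from the highest control to the lowest of them. The means were 11.41 ± 0.13 (SD, n = 3) and 12.33 ± 0.21 (SD, n = 3), a log2 difference of 0.92 (SE 0.17) or 1.89-fold. These are the values that led to the choice of the genes. Over all genes 9.43% had groups that did not overlap, 5.43% with the MTA2 siRNA samples higher. A difference at least as high was present in 0.987% of genes, where PABPC3 ranked 189 of 19148. A gap at least as wide, with the MTA2 siRNA samples higher, was present in 12 genes (0.0627%). Gaps in the other direction were not counted. These shares describe a gene chosen for this difference and are no test of it.

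The PABPC3 difference was similar in size within each dye. It was 1.04 in the Cy3 samples (2 controls and 1 MTA2 siRNA sample), 0.97 in the Cy5 samples (1 control and 2 MTA2 siRNA samples) and 1.00 with dye as a block. With 1 sample left out it stayed between 0.82 and 1.03. Every MTA2 siRNA sample lay at least 0.62 above every control, so no subset of samples could turn the sign. These fits reuse the values that led to the choice of the genes and only describe them. PABPC3 has 1 row on this array, so no second row measured it. The values of that row lay within the medians of the markers that an epithelial line should lack (10.08 to 12.72). The features' sequences were not used here, and whether this row also binds PABPC1 or its processed copies was not tested.

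**Figure D1:**
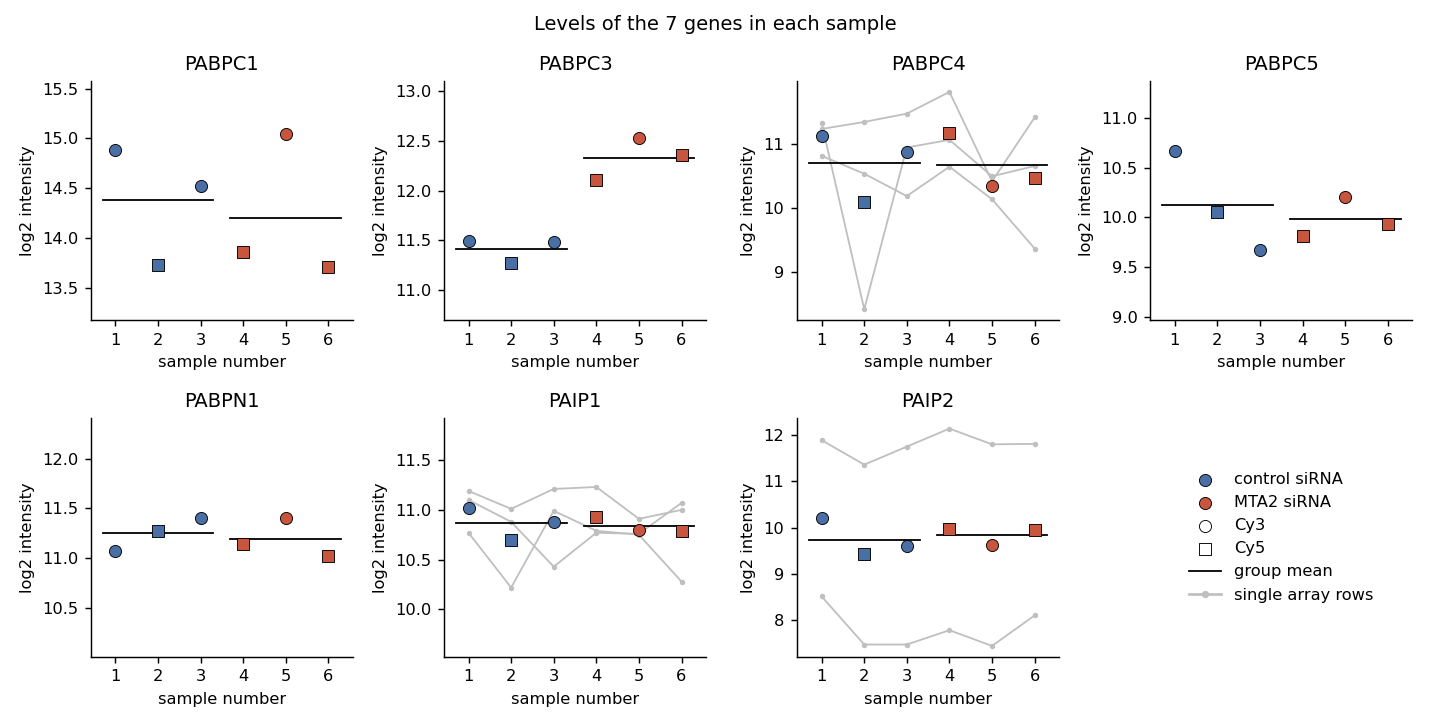
Log2 intensity (y axis) of each gene in samples 1 to 6 (x axis), blue for control siRNA and red for MTA2 siRNA, circles for Cy3 and squares for Cy5; black lines are group means and grey lines single array rows where a gene has several. PABPC3 reads 11.27 to 11.49 in the controls and 12.11 to 12.53 in the other samples, while PABPC1 reads 14.52 to 15.04 in the Cy3 samples and 13.71 to 13.86 in the Cy5 samples.

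PABPC1, the main cytoplasmic poly(A)-binding protein, lay apart by dye and overlapped between the siRNA groups. Its single row (NM_002568) read 14.88, 14.52 and 15.04 in Cy3 samples 1, 3 and 5. It read 13.73, 13.86 and 13.71 in Cy5 samples 2, 4 and 6. Every Cy3 sample lay above every Cy5 sample, by at least 0.66, and each dye holds samples of both siRNA groups. Dyes failed to overlap in 27.6% of all genes, 11.8% with Cy5 lower, and in 1 of these 7 genes.

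The dye contrast was not used to choose the genes and was tested here. The dyes are unequal between the siRNA groups, so the PABPC3 value, fitted with the siRNA group, is not independent of that choice. The dye differences of single genes were, however, added after the data were seen. With the siRNA group in the fit, PABPC1 was 2.16-fold higher in Cy3, a log2 difference of -1.11 for Cy5 minus Cy3 (SE 0.17, 95% interval -1.54 to -0.68). Its unadjusted p was 0.000818 and its limma adjusted p = 0.0985 over all genes, so it did not pass the threshold of 0.05. The call depended on the fit: the adjusted p was 0.0172 with a trended robust variance, 0.042 over genes above the median level only and 0.0488 without the siRNA group in the fit. Over all alternatives that p ran from 0.0172 to 0.43.

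Between siRNA groups PABPC1 averaged 14.38 ± 0.59 (SD, n = 3) over the controls and 14.20 ± 0.73 (SD, n = 3) in samples 4 to 6. The controls hold 2 Cy3 samples and the other group 1. The difference was -0.18 (SE 0.43) without a dye term and 0.20 with dye as a block, so its sign turned. Within dyes it was 0.34 in Cy3 and 0.05 in Cy5, and with 1 sample left out it ran from -0.59 without sample 5 to 0.08 without control sample 1. PABPC1 therefore has no settled direction between the siRNA groups in these samples.

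**Figure D2:**
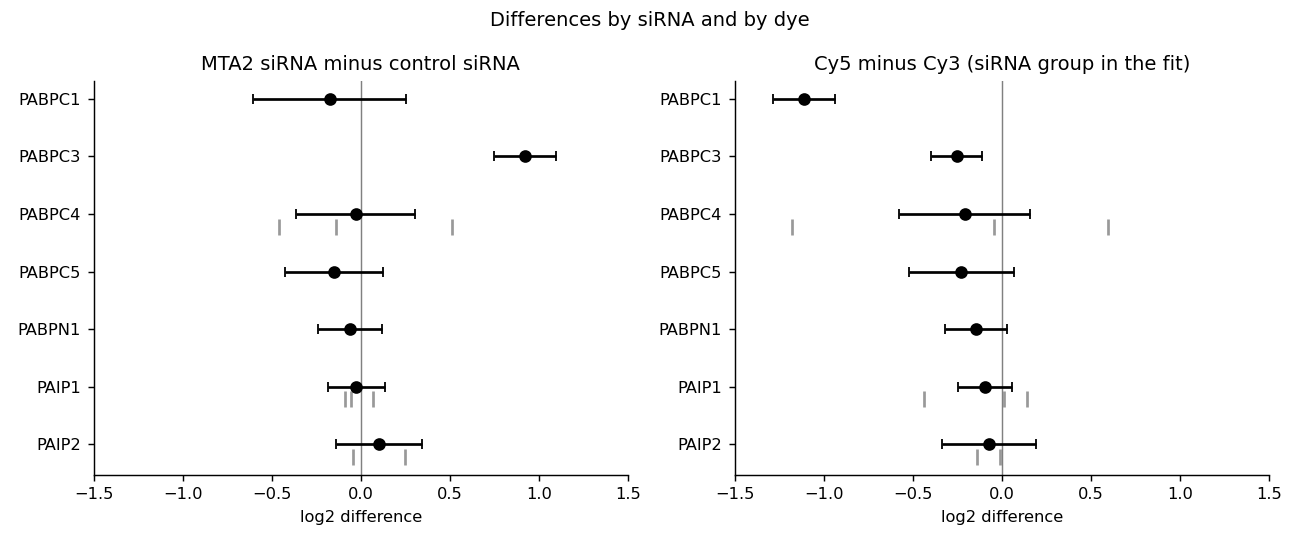
Log2 difference (x axis) of each gene (y axis) between siRNA groups on the left and between dyes on the right; dots are gene means of rows, bars ± 1 SE from limma and grey ticks single rows. PABPC3 stands at 0.92 between siRNA groups and PABPC1 at -1.11 between dyes, while the rows of PABPC4 run from -1.18 to 0.59 between dyes.

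PABPC4, a cytoplasmic relative first described in activated T cells, was measured by 3 rows that did not move together. Their mean read 11.13, 10.1 and 10.88 in control samples 1 to 3 and 11.18, 10.35 and 10.48 in samples 4 to 6. The groups overlapped, at 10.70 ± 0.54 and 10.67 ± 0.45 (SD, n = 3 each), a difference of -0.03 (SE 0.33).

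The row for NM_001135654 read 11.33, 8.42 and 10.95 in the controls and 11.07, 10.5 and 10.66 in those labelled MTA2 siRNA. Control sample 2, at 8.42, was the low value, and the row's difference was 0.51. The row for NM_001135653 read 11.24, 11.35 and 11.48 in the controls and 11.82, 10.42 and 11.42 in samples 4 to 6, where sample 5 was low, a difference of -0.14. The row for NM_003819 read 10.82, 10.54 and 10.19 against 10.65, 10.14 and 9.37, a difference of -0.46. The 3 rows thus disagreed in sign. The mean difference was -0.65 within Cy3 and 0.73 within Cy5. With 1 sample left out it lay between -0.33 without control sample 2 and 0.18 without control sample 1. The dye differences of the rows ran from -1.18 to 0.59, and that of their mean was -0.21 (SE 0.37, limma adjusted p = 0.791).

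PABPC5, a cytoplasmic family member that lacks the C-terminal protein-binding domain of PABPC1, read 10.67, 10.06 and 9.67 in the controls. It read 9.81, 10.21 and 9.93 in samples 4 to 6. The control values spanned those of the other group, with means of 10.13 ± 0.51 and 9.98 ± 0.21 (SD, n = 3 each) and a difference of -0.15 (SE 0.28). Control sample 1 was the high value; the difference was 0.12 without it and -0.38 without control sample 3. Between dyes PABPC5 differed by -0.23 (SE 0.29, limma adjusted p = 0.709).

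PABPN1, the nuclear protein that controls tail length and is mutated in oculopharyngeal muscular dystrophy, varied little. It read 11.07, 11.27 and 11.4 in the controls and 11.14, 11.4 and 11.02 in samples 4 to 6, a range of 0.39 over all 6. The groups overlapped, with a difference of -0.06 (SE 0.18) that ran from -0.17 without sample 5 to 0.024 without sample 6, and the dyes differed by -0.15 (SE 0.17, limma adjusted p = 0.687). A separate row for the readthrough transcript BCL2L2-PABPN1, which joins the neighbouring apoptosis gene to PABPN1, is not one of the 12 rows. It read 11.47, 11.84 and 11.44 in the controls and 12.28, 11.5 and 11.83 in samples 4 to 6, a difference of 0.28 (SE 0.25). In the fit of single rows it read higher in Cy5, by 0.47 (SE 0.19, limma adjusted p = 0.291), where PABPN1 read lower. The 2 transcripts share PABPN1 sequence, and their signals may not be separable.

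The interactors showed no separation between the siRNA groups. PAIP1, the activating partner, had the narrowest range of the 7 genes, 0.32 over the 6 samples, as a mean of 3 rows. Single rows ran from 10.22 to 10.99 (NM_006451), 10.43 to 11.1 (NM_183323) and 10.91 to 11.23 (NM_182789). The mean of its 3 rows read 11.02, 10.7 and 10.88 in the controls and 10.93, 10.8 and 10.79 in samples 4 to 6, and the groups overlapped. The difference was -0.03 (SE 0.16), from -0.11 without sample 2 to 0.051 without sample 1, and single rows gave -0.09, -0.06 and 0.07. Between dyes the mean differed by -0.10 (SE 0.15, limma adjusted p = 0.765), while the row for NM_006451 read 10.22 and 10.28 in Cy5 samples 2 and 6 but 10.79 in Cy5 sample 4.

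PAIP2, the repressing partner, was measured by 2 rows. Their mean read 10.2, 9.42 and 9.61 in the controls and 9.96, 9.62 and 9.95 in samples 4 to 6, and the groups overlapped. The difference was 0.10 (SE 0.24). The row for NM_001033112 read 11.89, 11.36 and 11.75 against 12.14, 11.8 and 11.81, a difference of 0.25. The row for NM_016480 read 8.51, 7.47 and 7.47 against 7.78, 7.44 and 8.10, a difference of -0.05, with control sample 1 high. Within Cy3 the PAIP2 mean differed by -0.29 and within Cy5 by 0.54. The difference was 0.33 without control sample 1 and -0.06 without control sample 2. Between dyes PAIP2 differed by -0.08 (SE 0.26, limma adjusted p = 0.902).

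**Figure D3:**
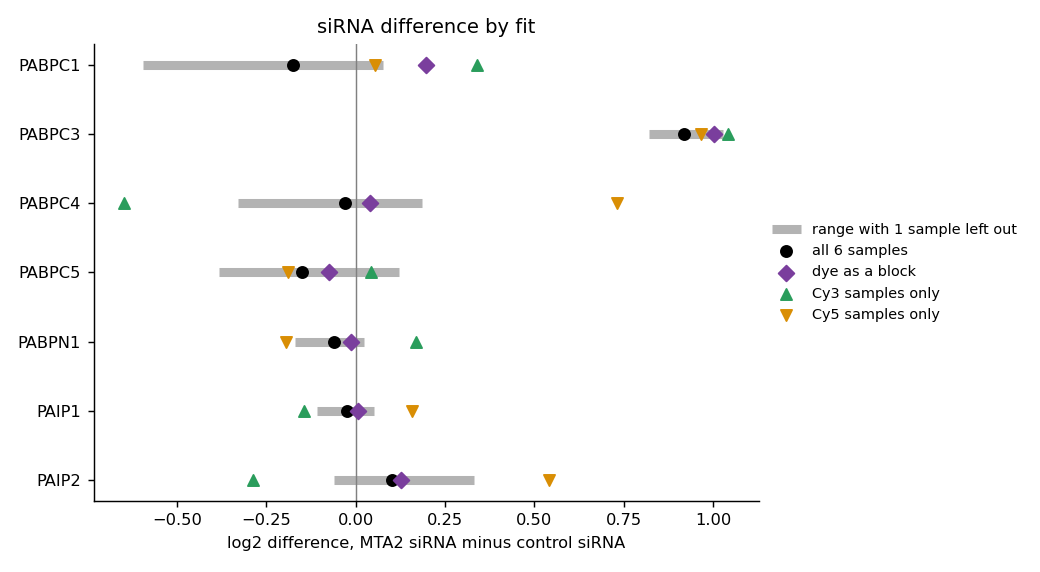
Log2 difference between siRNA groups (x axis) for each gene (y axis) in all 6 samples, with dye as a block, within each dye, and as the range with 1 sample left out (grey bars). The fits for PABPC3 lie between 0.82 and 1.04, those for the other genes lie on both sides of 0.

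Over the 7 genes the median difference between the siRNA groups was -0.03, against 0.03 over all genes. The 6 genes other than PABPC3 lay between -0.18 and 0.10. Between dyes limma called 0 of the 7, against 0.345% of all genes, and 1, PABPC1, had an unadjusted p under 0.05, against 17.9% of all genes. All 7 read lower in Cy5 with the siRNA group in the fit, with a median of -0.21 against 0.03 over all genes. Of all genes 47.0% read lower in Cy5. For PABPC3 this sign depends on the siRNA difference that led to the choice. Its plain means were 11.83 in Cy3 and 11.91 in Cy5. Of the 12 rows 9 read lower in Cy5. PABPC1 and PABPC5 kept this sign in every fit run. It turned for PABPC3 without the siRNA group in the fit (0.079), and for PABPC4 and PAIP1 in their brightest rows (0.59 and 0.0099). With 1 sample left out it turned for PABPC4 (0.48 without sample 2), PABPN1 (0.037 without sample 5), PAIP1 (0.054 without sample 2) and PAIP2 (0.11 without sample 1 and 0.34 without sample 2).

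The genes whose pattern over the 6 samples was most like that of PABPC3 were IFITM3, MAP2, CHRM2, ZNF609 and TRIM58, among 9543 genes above the median level (10.47). Pearson's r over 6 samples was 0.988, 0.984, 0.971, 0.967 and 0.962, given without a p because the closest of many genes were selected. IFITM3, an interferon-induced membrane protein, read 10.42, 10.39 and 10.46 in the controls and 11.08, 11.3 and 11.28 in samples 4 to 6. All 5 read higher in each sample labelled MTA2 siRNA than in each control, which is the feature that PABPC3 was noticed for. None was called between the siRNA groups (limma adjusted p = 0.943 for each). Their differences were 0.79 for IFITM3, 0.27 for MAP2, 0.24 for CHRM2, 0.84 for ZNF609 and 0.27 for TRIM58.

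The other genes of the poly(A) tail pathway were examined as a list of 72 genes in 5 groups, all of them measured. Limma called 0 of 72 between the siRNA groups, as it called 0% of all genes. Of the 72, 39 read higher and 33 lower, with a median of 0.03, equal to that of all genes to 2 decimals. An unadjusted p under 0.05 was found in 2 genes, both of the nuclear polyadenylation group, and in 3.75% of all genes. The siRNA groups did not overlap for 8 of 72 (11.1%), against 9.43% of all genes.

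In the nuclear polyadenylation group, which cleaves the precursor RNA and adds the tail, 0 of 20 genes were called, with 9 higher, 11 lower and a median of -0.03. CSTF2T, a cleavage stimulation factor subunit, read 11.88, 11.91 and 11.75 in the controls and 11.18, 11.38 and 11.04 in samples 4 to 6. All 3 of the latter lay below the controls, a difference of -0.65 (SE 0.16, limma adjusted p = 0.943). NUDT21, the small subunit of cleavage factor I that selects the polyadenylation site, read 9.60, 10.04 and 9.79 against 9.35, 9.12 and 9.40. Its groups did not overlap either, with a difference of -0.52 (SE 0.18, limma adjusted p = 0.943). CLP1, an RNA kinase of cleavage factor II, differed by -0.50 (SE 0.23), and its groups overlapped. The CLP1 difference was -0.18 in its brightest row, -0.07 within Cy3 and -0.96 within Cy5. CSTF2T, NUDT21 and CLP1 were named for the smallest p between siRNA groups. The siRNA groups did not overlap for 4 of the 20 genes (20.0%, against 9.43% of all genes). They include CSTF1 (0.20) and CPSF7 (0.18), named after their values were seen, which read higher in samples 4 to 6. For CPSF7 the highest control and the lowest of samples 4 to 6 both read 15.67 to 2 decimals.

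Of the 15 deadenylases and their CCR4-NOT subunits, which shorten the tail, 0 were called, with 8 higher and 7 lower. The siRNA groups did not overlap for 3 of the 15 (20.0%, against 9.43% of all genes). They are CNOT1 and, named after their values were seen, CNOT3 and CNOT10, all higher in samples 4 to 6. CNOT1, the scaffold of the complex, read 10.69 ± 0.16 in the controls and 11.08 ± 0.19 in samples 4 to 6 (SD, n = 3 each). The difference was 0.38 (SE 0.18), but 0.15 in its brightest row, 0.17 within Cy3 and 0.58 within Cy5. The catalytic subunits CNOT8 and CNOT7 differed by -0.59 (SE 0.33) and -0.46 (SE 0.27). The CNOT8 difference was -0.24 without sample 6, which read 8.78, and the CNOT7 difference was -0.25 with dye as a block.

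Of 20 partners that bind poly(A)-binding proteins 0 were called, with 12 higher and 8 lower. The siRNA groups did not overlap for 1 of the 20 (5.0%), LARP1, and for 0 of the relatives and terminal nucleotidyltransferases below. TNRC6A, a microRNA silencing scaffold, differed by 0.33 (SE 0.18), LARP1, which binds terminal oligopyrimidine messages, by 0.22 (SE 0.14), and the release factor GSPT1 by -0.50 (SE 0.34). By dye GSPT1 read -0.85 for Cy5 minus Cy3, which did not pass (limma adjusted p = 0.126). Its siRNA difference was -0.22 with dye as a block and -0.14 in its brightest row. It was -0.82 without sample 2, -0.76 without sample 5, -0.31 without sample 3 and -0.30 without sample 4. Of 7 relatives 0 were called. PABPC1L2A differed by 0.32 (SE 0.34), by 0.07 with dye as a block and by 0.04 without sample 1, 0.10 without sample 6, 0.49 without sample 5 and 0.64 without sample 2. ZC3H14, which binds poly(A) through zinc fingers, differed by 0.09 (SE 0.16), and by 0.0031 without sample 1, 0.051 without sample 4 and 0.15 without sample 2. PABPN1L differed by -0.23 (SE 0.41). Its difference was -0.68 without sample 3, -0.47 without sample 5, -0.068 without sample 6, -0.047 without sample 1 and 0.020 without sample 2. Of 10 terminal nucleotidyltransferases, which add bases to RNA ends, 0 were called. TENT5A differed by -0.40 (SE 0.24), TENT5C by -0.24 (SE 0.18) and TUT7, which adds uridines, by 0.27 (SE 0.21). The TENT5A difference was -0.18 without sample 2 and that of TENT5C -0.14 without sample 4. TUT7 differed by 0.12 with dye as a block, 0.64 in its brightest row, 0.14 without sample 6 and 0.43 without sample 5.

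Between dyes 12 of the 72 genes had an unadjusted limma p under 0.05, against 17.9% of all genes. Of the 72, 2 passed the adjusted threshold (2.78%, against 0.345% of all genes), and they are named because they were called. CPSF2, a subunit of the cleavage and polyadenylation factor, read 12.23, 12.34 and 12.35 in Cy3 samples 1, 3 and 5. It read 9.70, 10.07 and 9.99 in Cy5 samples 2, 4 and 6, a difference of -2.45 (SE 0.14, limma adjusted p = 0.0113). TUT1, which uridylates U6 RNA, read 8.12, 8.12 and 8.35 in Cy3 and 6.11, 6.28 and 6.14 in Cy5, a difference of -2.08 (SE 0.14, limma adjusted p = 0.0121). The count of such genes was 0 without sample 1, 2, 3 or 5 and 2 without sample 4 or 6.

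**Figure D4:**
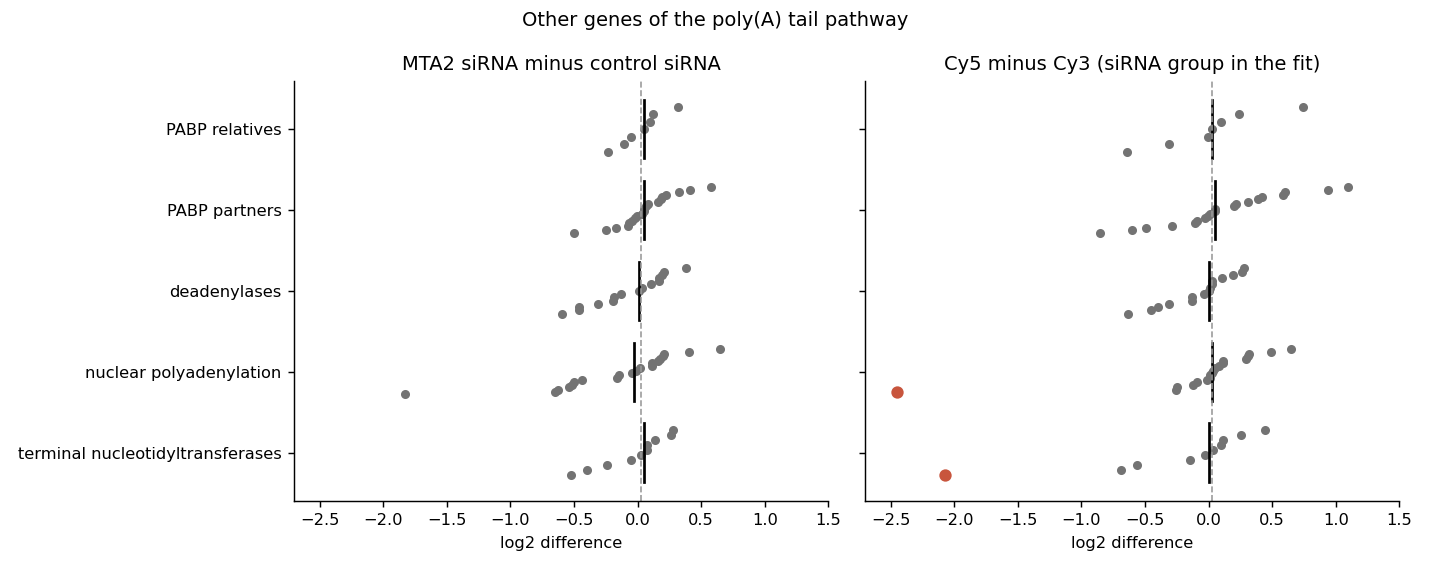
Log2 difference (x axis) of the 72 other poly(A) tail genes by group (y axis), between siRNA groups on the left and dyes on the right; black bars are group medians, the dashed line the median of all genes, and red points passed a limma adjusted p of 0.05. No gene passed on the left, and CPSF2 (-2.45) and TUT1 (-2.08) passed on the right.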

How the data were processed

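RNA from 6 KYSE30 samples was measured on expression arrays. The authors deposited log2 normalised intensities for 34558 rows in 2 tables that hold the same values. Per the labels' protocols, double-stranded cDNA was labelled with a NimbleGen one-colour kit and scanned on a GenePix scanner. How they corrected background, normalised or filtered the values, and on which build, is not given in the sources used here. The column medians lay between 10.44 and 10.45. No detection call was used, no read depth exists for arrays, and precision is limited by the number of samples.

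Rows were named through a RefSeq table (GRCh38.p14, for names only): 33809 by accession, 462 by symbol, 206 through older symbols and 81 left as deposited. Rows of a gene were averaged on the log2 scale, so a fold is a ratio of intensities. Fits used limma 3.58.1 under R 4.3.3 (linear model with moderated variance, two-sided, Benjamini-Hochberg over all 19148 genes). The siRNA fit had no covariate, and the dye fit had the siRNA group as covariate. The code was tested on simulated data. Plots used matplotlib 3.10.9.

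The genes, the pathway list and the tests were chosen with earlier results of these data known. Named genes are MTA2, the 7 genes and the 3 pathway genes per group with the smallest p between siRNA groups. Also named are the 5 genes most correlated with PABPC3, among genes above the median level with RefSeq names, the 7 left out. Pathway genes named beyond these are given with the reason for naming them. Alternatives covered normalisation, a filter on dim genes, rows per gene, variance model, array weights, dye, threshold and each sample left out.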

Additional observations from a re-analysis of the deposited data

How the results depend on the processing

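Dye differences of the 7 genes and of the pathway list were added after seeing the data. Between siRNA groups the PABPC3 difference lay between 0.82 and 1.04 over 16 alternatives, the median of the 7 genes between -0.11 and 0.16, and MTA2 between 0.13 and 0.33. The PABPC3 alternatives reuse the values that led to the choice of the genes and are no test. Limma calls stayed at 0 except for 4 genes in the Cy3 samples only and 0 to 3 genes with 1 sample left out (3 without sample 2, 1 without sample 6). No pathway gene was called in any of 17 alternatives. Signs turned for PABPC1L2A (-0.16 within Cy5), PABPN1L (0.49 within Cy3, and a leave-one-out range of -0.68 to 0.020, the highest without sample 2), TENT5A (0.088 within Cy3) and ZC3H14 (-0.016 within Cy5 and -0.18 in its brightest row). The cause was not tested.

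Genes called by dye numbered 66, but 181 at an adjusted p of 0.10, 120 with every array row, 138 above the median level, 194 without the siRNA group, 105 after quantile normalisation again, 282 with a trended robust variance and 1 to 35 with 1 sample left out. Of the 7 genes 1, PABPC1, was called at 0.10, above the median level, without the siRNA group and with the trended variance. The pathway count of 2 by dye became 3 with every array row, 1 above the median level and with the trended variance, and 0 to 2 with 1 sample left out. Dye differences turned in sign for PABPC3 without the siRNA group (0.079) and for PABPC4 and PAIP1 in the brightest row (0.59 and 0.0099). Their leave-one-out ranges were -0.90 to 0.48 for PABPC4, -0.33 to 0.037 for PABPN1, -0.25 to 0.054 for PAIP1 and -0.49 to 0.34 for PAIP2. The array-row fit gives no value for genes with several rows, and PABPC5 and PAIP2 lie below the median level. Fits with 1 sample in a group assume that it varies like the others. No paired analysis was possible because the sample numbers run from 1 to 6 and are not shared between groups.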
